A study of Mus musculus with 12 samples.

Results

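The genes described here encode the machinery of vesicle transport between the endoplasmic reticulum (ER) and the Golgi apparatus. The list holds 38 genes of the 18193 measured: 7 of the COPII coat, 4 that assemble that coat, 5 cargo receptors, 5 of the Tmed family, 6 of vesicle tethering and fusion, 3 KDEL receptors, 7 of the COPI coat and 1 that stimulates GTP hydrolysis by the COPI GTPase. Its members are named genes of the pathway, and they were chosen with earlier results of these data known. No threshold on values picked them, but shares called among them may not hold for the whole pathway. Each is represented by the probeset with the highest mean signal among those that the array's annotation gives to this gene alone.

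COPII vesicles leave the ER for the Golgi. The small GTPase Sar1, loaded with GTP on the ER membrane by Preb, recruits the inner coat of Sec23 and Sec24 and then the outer cage of Sec13 and Sec31, while Sec24 and transmembrane cargo receptors select what is carried. COPI vesicles run the other way, under the GTPase Arf1, and bring back escaped ER proteins that KDEL receptors have bound, while proteins of the Tmed (p24) family travel in both directions. Hepatocytes secrete most plasma proteins and lipoproteins through this route, and the unfolded protein response (UPR), the program set off by misfolded proteins in the ER, is known to raise many of these genes.

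Liver RNA of 12 mice was measured on Affymetrix arrays, 1 animal per array and 3 animals in each of 4 groups. The groups were Atf6a-/- animals given 2 mg/kg tunicamycin (TM), wild-type (Atf6a +/+) animals given the same dose, Atf6a-/- animals given vehicle and wild-type animals given vehicle. TM blocks N-linked glycosylation in the ER, ATF6a is a UPR transcription factor that is activated by its cleavage, and the vehicle, in which TM was also dissolved, was 150 mM dextrose. All livers were taken 8 h after the injection, the animals were of mixed age and sex and had been fasted before they were killed, and neither their strain nor the deleted part of Atf6 is given in the sources used here.

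Values are log2 signals after RMA, on which the median of all probesets was 5.04. Arrays of a group correlated at 0.987 or more. Hepatocyte markers marked the tissue as liver, with 9 of 9 measured markers above the array median on all arrays. Atf6 itself ranged over 9.76 to 10.50 in Atf6a-/- animals and 10.75 to 11.16 in wild-type animals with TM, and over 7.03 to 7.79 in Atf6a-/- animals and 8.74 to 9.47 in wild-type animals with vehicle, and whether its probes lie in the deleted part is not known. Signal of Y-linked genes was present on 4 arrays, 1 of each group. Replicate 2 of wild-type vehicle was the highest of its group for Hspa5, the ER chaperone BiP, at 13.16 against 12.34 and 12.32 in the other 2. Its median of the 38 genes was 10.44, against 9.87 and 10.13. It was also the only wild-type vehicle array with Y-linked signal. The arrays cover a whole tissue, in which fewer cells of a type and less RNA per cell cannot be told apart.

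TM raised most of the 38 genes in both genotypes. Of 55 further genes of the pathway, fewer were called higher, 38.2% in either genotype. In Atf6a-/- animals 26 of the 38 genes were called higher with TM than with vehicle and 0 lower, and in wild-type animals 31 were called higher and 0 lower. No member was lower by unadjusted p at over 1.5-fold either, by limma or by the methods' t-test. A call means a Benjamini-Hochberg adjusted p of limma under 0.05 over all 45037 probesets and a change of over 1.5-fold. Over all 18193 genes, 13.1% were called higher and 8.21% lower in Atf6a-/- animals, and 8.92% higher and 6.9% lower in wild-type animals. Among the 1964 genes whose mean signal is over 10, as it is for most members, 18.1% were called higher in Atf6a-/- animals and 17% in wild-type animals. The median log2 fold change of the 38 genes was 0.76 in Atf6a-/- animals, against -0.10 over all genes, and 0.99 in wild-type animals, against -0.06 over all genes. Without replicate 2 of wild-type vehicle, 30 members were called higher in wild-type animals.

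All 26 genes called in Atf6a-/- animals were among the 31 called in wild-type animals. The 5 called in wild-type animals and not in Atf6a-/- animals were Lman2, Tmed7, Yif1a, Kdelr3 and Copz1, and 7 genes were called in neither genotype: Sec24a, Sec24c, Sar1b, Tmed2, Tmed10, Kdelr1 and Kdelr2. The TM and vehicle animals did not overlap, with TM higher, for 27 members in Atf6a-/- animals (20.8% of all genes) and 32 in wild-type animals (16.8% of all genes). With TM lower, they did not overlap for 2 members in Atf6a-/- animals, Sar1b and Tmed10 (29.6% of all genes), and for Sar1b alone in wild-type animals (22.5% of all genes). With 3 animals against 3, an exact permutation test of a single gene cannot give a p below 0.1.

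The counts varied by role. COPI coat genes were called in 6 of 7 cases in Atf6a-/- animals and in 7 of 7 in wild-type animals, with medians of 0.83 in Atf6a-/- and 0.72 in wild-type animals on the log2 scale. COPII coat genes were called in 5 of 7 cases in either genotype, with medians of 0.66 in Atf6a-/- and 1.00 in wild-type animals. Of the 5 cargo receptors, 4 were called in Atf6a-/- animals and 5 in wild-type animals (medians of 0.80 in Atf6a-/- and 0.90 in wild-type animals). Of the 5 Tmed genes, 2 were called in Atf6a-/- animals and 3 in wild-type animals (medians of 0.57 in Atf6a-/- and 0.62 in wild-type animals). The KDEL receptors had 0 of 3 called in Atf6a-/- animals, 1 of 3 in wild-type animals and medians of 0.06 in Atf6a-/- and 0.21 in wild-type animals, but a dimmer probeset of Kdelr2 was called in both genotypes. The changes of COPI coat genes ran from 0.07 to 0.97 in Atf6a-/- and from 0.64 to 1.13 in wild-type animals, and those of COPII coat genes from -0.09 to 1.60 in Atf6a-/- and from 0.12 to 2.00 in wild-type animals. Tmed genes other than the dim Tmed2 ran from -0.34 to 1.56 in Atf6a-/- and from 0.35 to 2.51 in wild-type animals. No test of a difference between roles was made.

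**Figure D1:**
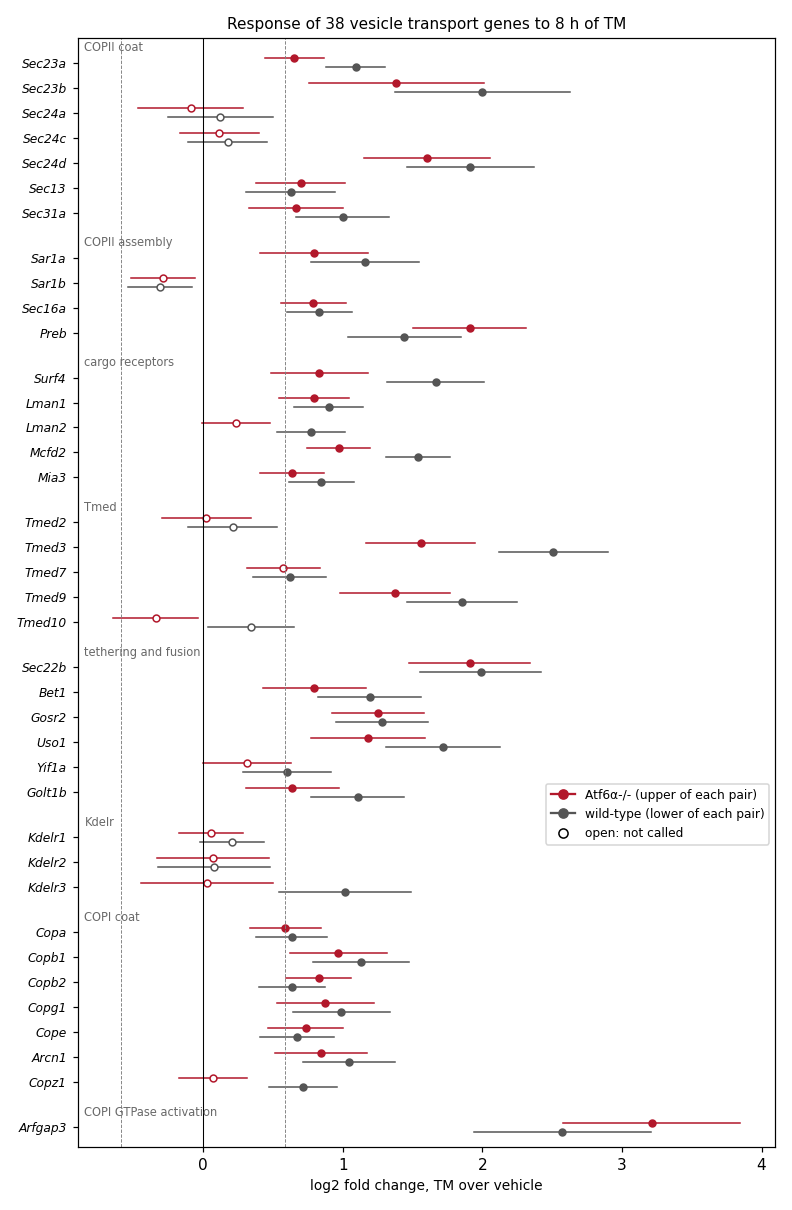
Log2 fold change of TM over vehicle (x axis) for each of the 38 genes, by role, with the 95% interval from limma. Red points, the upper of each pair, are Atf6a-/- animals and grey points are wild-type animals (3 animals per group), filled where called, and dashed lines mark 1.5-fold. Most points lie right of the upper dashed line, while Sec24a, Sec24c, Sar1b, Tmed2, Tmed10, Kdelr1 and Kdelr2 are open in both genotypes.

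The start regions of 33 of the 38 genes could be read from RefSeq (mouse build GRCm38.p6, 250 bases before to 50 after the annotated start), and 5 of them hold an exact copy of the UPR element TGACGTGG, a sequence known to be bound by XBP1 and ATF6. These 5 windows are printed because they hold the element, which is in capitals. It reads CCACGTCA where it lies on the opposite strand of the gene.
Sec24d (chr3:123267246-123267545, + strand): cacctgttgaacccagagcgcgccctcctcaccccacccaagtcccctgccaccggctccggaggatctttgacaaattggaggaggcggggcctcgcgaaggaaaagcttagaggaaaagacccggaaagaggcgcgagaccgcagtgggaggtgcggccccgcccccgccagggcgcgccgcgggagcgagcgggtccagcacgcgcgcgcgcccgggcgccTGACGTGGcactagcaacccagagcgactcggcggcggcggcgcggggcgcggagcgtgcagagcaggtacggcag
Sec23a (chr12:59011968-59012267, - strand): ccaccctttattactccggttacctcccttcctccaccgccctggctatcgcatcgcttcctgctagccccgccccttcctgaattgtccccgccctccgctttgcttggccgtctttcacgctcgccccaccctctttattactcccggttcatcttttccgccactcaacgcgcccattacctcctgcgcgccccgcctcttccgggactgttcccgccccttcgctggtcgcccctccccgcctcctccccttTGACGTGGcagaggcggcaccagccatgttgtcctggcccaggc
Kdelr3 (chr15:79516158-79516457, + strand): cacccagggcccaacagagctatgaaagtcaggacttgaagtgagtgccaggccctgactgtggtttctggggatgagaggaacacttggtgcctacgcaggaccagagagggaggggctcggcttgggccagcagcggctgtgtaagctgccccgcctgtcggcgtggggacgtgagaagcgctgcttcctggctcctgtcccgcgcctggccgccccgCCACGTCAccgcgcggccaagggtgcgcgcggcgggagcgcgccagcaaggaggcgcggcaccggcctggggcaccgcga
Copb1 (chr7:114254631-114254930, - strand): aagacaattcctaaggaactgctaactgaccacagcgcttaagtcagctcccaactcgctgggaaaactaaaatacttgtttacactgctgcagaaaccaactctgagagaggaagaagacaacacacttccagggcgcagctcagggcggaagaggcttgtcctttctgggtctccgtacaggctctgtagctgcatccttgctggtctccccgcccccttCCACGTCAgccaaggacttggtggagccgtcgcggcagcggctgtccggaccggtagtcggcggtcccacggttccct
Copb2 (chr9:98563481-98563780, + strand): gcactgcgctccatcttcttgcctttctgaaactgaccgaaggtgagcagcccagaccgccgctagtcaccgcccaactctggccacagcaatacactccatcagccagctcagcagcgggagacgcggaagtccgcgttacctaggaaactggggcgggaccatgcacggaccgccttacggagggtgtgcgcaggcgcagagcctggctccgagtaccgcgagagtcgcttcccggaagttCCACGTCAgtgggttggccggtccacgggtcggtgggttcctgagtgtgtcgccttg
The element lies from -26 to -19 relative to the start of Sec24d, from 7 to 14 in Sec23a, from -30 to -23 in Kdelr3, from -28 to -21 in Copb1 and from -7 to 1 in Copb2, counting the first transcribed base as 1. Read on both strands, it occurs in 15.2% of the 33 genes, against 0.714% of all 27025 genes with a window, 0.989% of the 14453 of them on the array and 10% of 50 other genes of the pathway. Its inner core ACGTG, which those 5 copies also contain, occurs in 23 of the 33 genes (69.7%), against 21.8% of all genes, 26.1% of those on the array and 44% of the 50 other pathway genes, and in each of these 23 a copy lies no further than 100 bases before the start. The ER stress response element, CCAAT and CCACG with 9 bases between them, and the ER stress response element II, ATTGG and CCACG with 1 base between them, were in 0 of the 33 windows, against 0.137% and 0.0444% of all genes. CCAAT alone occurs in 45.5% of the 33 genes and 41.1% of all genes. The windows of the 33 genes had a median GC content of 57.7%, against 52.8% for all genes. Among members with a window, the core occurs in 71.4% of the 28 that rose with TM in wild-type animals and in 60% of the 5 not called there. All 5 genes with TGACGTGG were called higher with TM in wild-type animals, as were 28 of the 33 genes with a window.

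**Figure D2:**
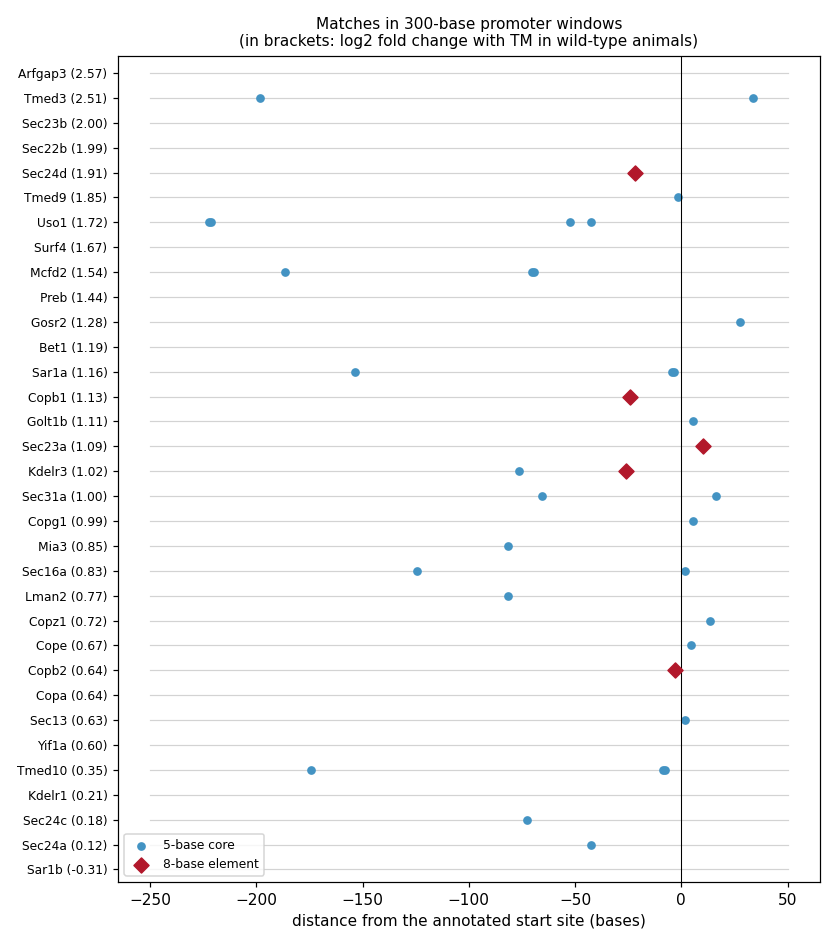
Position of TGACGTGG (red diamonds) and of ACGTG (blue circles) in the 33 windows, as distance in bases from the annotated start (x axis), with genes in descending order of their log2 fold change with TM in wild-type animals (in brackets). The diamonds lie between -26 and 10, and 10 of the 33 genes have neither match, Arfgap3, Sec23b and Sec22b among them.

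Within the COPII coat, Sec24d, an inner coat subunit that binds cargo, had 11.76, 11.58 and 11.84 in Atf6a-/- TM animals, against 10.29, 9.96 and 10.11 with vehicle. In wild-type animals Sec24d had 11.53, 11.56 and 11.64 with TM, against 9.26, 10.29 and 9.44 with vehicle. TM and vehicle animals did not overlap in either genotype. The log2 fold change was 1.60 (SE 0.21, adjusted p = 0.000108 by limma) in Atf6a-/- animals and 1.91 (SE 0.21, adjusted p = 4.22e-05) in wild-type animals. Its relatives Sec24a and Sec24c, singled out after their values were seen, were not called, at -0.09 and 0.11 in Atf6a-/- animals and 0.12 and 0.18 in wild-type animals (SE 0.17 for Sec24a and 0.13 for Sec24c).

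Sec23a and Sec23b are the alternative forms of the subunit that stimulates the GTPase Sar1. Sec23a had 11.52, 11.26 and 11.48 in Atf6a-/- TM animals, against 10.67, 10.71 and 10.91 with vehicle. It had 11.92, 12.00 and 12.04 in wild-type TM animals, against 10.86, 10.90 and 10.91 with vehicle. Both genotypes separated fully by treatment, and under TM every Atf6a-/- animal lay below every wild-type animal. The fold change was 1.57 in Atf6a-/- animals (log2 0.65, SE 0.10, adjusted p = 0.000291 by limma) and 2.13 in wild-type animals (log2 1.09, SE 0.10, adjusted p = 8.66e-06). Sec23b changed by 1.38 in Atf6a-/- and 2.00 in wild-type animals on the log2 scale (SE 0.29 each). The cage subunits Sec13 and Sec31a were called in both genotypes, Sec13 at 0.70 in Atf6a-/- and 0.63 in wild-type animals, Sec31a at 0.66 in Atf6a-/- and 1.00 in wild-type animals. Sec13 lost its call in both genotypes after quantile normalization of the values.

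Of the genes that assemble the coat, Preb, the exchange factor that loads Sar1 with GTP, had 11.74, 11.64 and 12.07 in Atf6a-/- TM animals, against 10.16, 9.77 and 9.80 with vehicle. In wild-type animals Preb had 11.18, 11.35 and 11.19 with TM, against 9.33, 10.05 and 10.01 with vehicle. Its Atf6a-/- TM animals all lay above the wild-type TM animals, and its response was among the 6 of 38 that were larger in Atf6a-/- animals. The log2 fold change was 1.91 (SE 0.19, adjusted p = 1.19e-05 by limma) in Atf6a-/- animals and 1.44 (SE 0.19, adjusted p = 0.000154) in wild-type animals. With TM the Atf6a-/- animals were at 0.58 above the wild-type animals (SE 0.19, adjusted p = 0.122), which is not a call. Another probeset of Preb, almost as bright (mean 10.59), was at 1.51 in Atf6a-/- and 1.55 in wild-type animals. A dimmer one (mean 6.98) was at 2.77 in Atf6a-/- and 2.41 in wild-type animals. Whether the response was larger in Atf6a-/- animals thus rests on the probeset.

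Sec16a, the scaffold of ER exit sites, had 11.21, 11.02 and 11.38 in Atf6a-/- TM animals, against 10.38, 10.38 and 10.48 with vehicle, and 11.14, 11.18 and 11.02 in wild-type TM animals, against 10.19, 10.43 and 10.22 with vehicle. The treatments did not overlap, and the responses were close, at 0.79 in Atf6a-/- and 0.83 in wild-type animals (SE 0.11 each, adjusted p = 0.00014 and 0.000144 by limma). Sar1a changed by 0.79 in Atf6a-/- and 1.16 in wild-type animals (SE 0.18, both called), but its other probeset, almost as bright (mean 10.04), was at 0.26 in Atf6a-/- animals (adjusted p = 0.189), and the call there was lost with the mean of all probesets. Sar1b, singled out after its values were seen, had 12.37, 12.21 and 12.17 in Atf6a-/- TM animals, against 12.54, 12.47 and 12.60 with vehicle, and 12.23, 12.07 and 12.41 in wild-type TM animals, against 12.57, 12.64 and 12.43 with vehicle. It was at -0.29 in Atf6a-/- and -0.31 in wild-type animals (SE 0.10, adjusted p = 0.06 and 0.0618). Sar1b was the single member below 0 in wild-type animals, and its TM animals lay below its vehicle animals in both genotypes without a call.

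Relatives were also set against each other within each array, as the difference of their log2 values. These 8 pairs were chosen after the values were seen and are given as a description, without a test. Averaged over the genotypes, the response of Sec24d exceeded that of Sec24a by 1.74 and that of Sec24c by 1.61 on the log2 scale. Sar1a exceeded Sar1b by 1.27, and Sec23b exceeded Sec23a by 0.82. Sec24c and Sec24a differed by 0.13. The 3 pairs of KDEL receptors differed by 0.06 to 0.45 on this average, which hides a difference between the genotypes for Kdelr3. Kdelr3 exceeded Kdelr1 by 0.81 in wild-type animals, against -0.03 in Atf6a-/- animals. It exceeded Kdelr2 by 0.94 in wild-type animals, against -0.04 in Atf6a-/- animals. However, 2 of these pairs take the brighter probeset of Kdelr2, and the dimmer one changed by 1.32 in Atf6a-/- and 1.45 in wild-type animals.

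**Figure D3:**
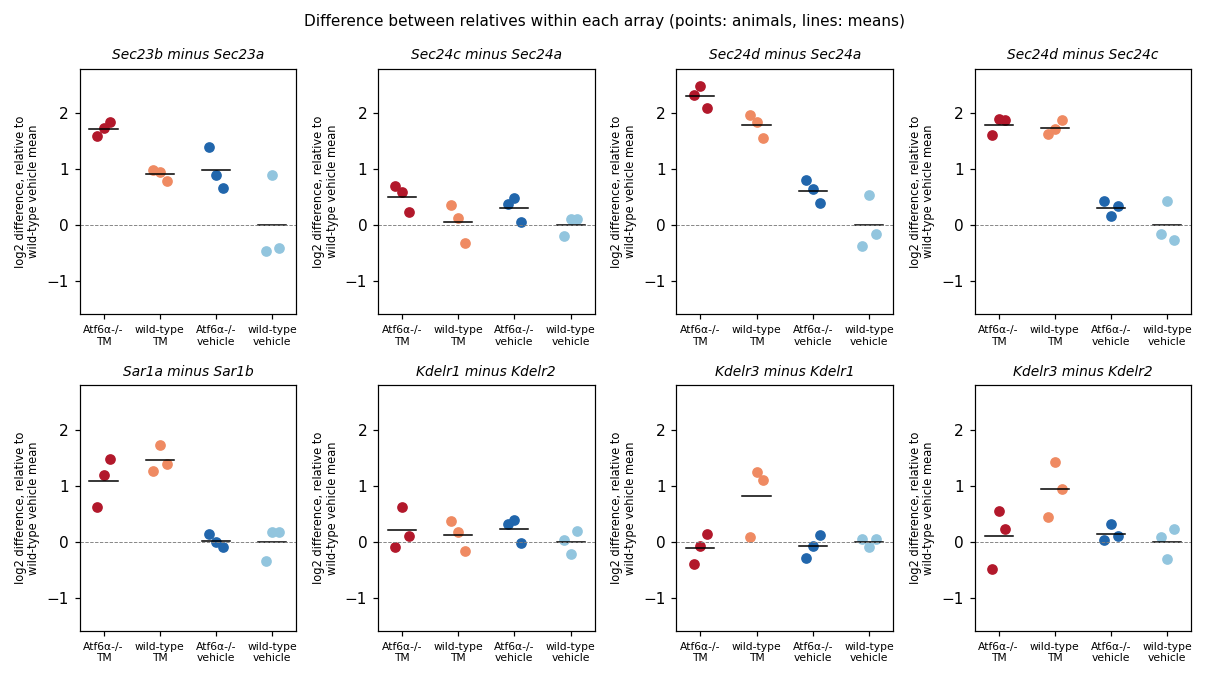
Difference of the log2 values of 2 related genes within each array, set to 0 at the mean of wild-type vehicle (y axis), for the 8 pairs. Points are animals and lines are group means. For Sec24d over Sec24a, Sec24d over Sec24c and Sar1a over Sar1b all TM points of a genotype lie above its vehicle points, while Kdelr1 over Kdelr2 shows overlapping groups.

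All 5 cargo receptors were called in wild-type animals. Mcfd2, the luminal partner of Lman1 in the export of coagulation factors V and VIII, had 13.01, 13.00 and 13.19 in Atf6a-/- TM animals, against 12.14, 12.04 and 12.11 with vehicle. In wild-type animals Mcfd2 had 13.22, 13.55 and 13.30 with TM, against 11.70, 11.92 and 11.84 with vehicle. The groups did not overlap in any of the 4 comparisons between pairs of groups. The log2 fold change was 0.97 (SE 0.10, adjusted p = 2.57e-05 by limma) in Atf6a-/- animals and 1.54 (SE 0.10, adjusted p = 1.01e-06) in wild-type animals. The difference between these responses was -0.57 (SE 0.15, adjusted p = 0.103), which missed the threshold.

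Surf4, a receptor for lipoproteins and other soluble cargo, had 11.68, 11.66 and 11.86 in Atf6a-/- TM animals, against 10.91, 10.82 and 10.97 with vehicle. It had 11.97, 12.29 and 12.02 in wild-type TM animals, against 10.11, 10.84 and 10.33 with vehicle. The treatments separated in both genotypes. Its response was 0.83 (SE 0.16, adjusted p = 0.00185 by limma) in Atf6a-/- animals and 1.67 (SE 0.16, adjusted p = 1.54e-05) in wild-type animals, with a difference of -0.83 (SE 0.23, adjusted p = 0.118). Without replicate 2 of wild-type vehicle, that difference was -1.04 with an adjusted p of 0.011. That animal has the highest Surf4 value of its group, so leaving it out enlarges the wild-type response by itself. Leaving out any other single array gave no call of this difference. Lman1, a lectin that carries glycoproteins, changed by 0.80 in Atf6a-/- and 0.90 in wild-type animals, and Mia3, which serves the export of large cargo, by 0.64 in Atf6a-/- and 0.85 in wild-type animals, all called. The call of Mia3 in Atf6a-/- animals was lost under 5 of 24 alternatives, and 2 dimmer probesets were at 0.42 and 0.34 there without a call. The lectin Lman2 was at 0.23 in Atf6a-/- animals (SE 0.11, adjusted p = 0.144) and 0.77 in wild-type animals (SE 0.11, adjusted p = 0.000397).

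The Tmed proteins take part in cargo sorting and coat recruitment. Tmed3 had 11.13, 11.37 and 11.35 in Atf6a-/- TM animals, against 9.97, 9.62 and 9.60 with vehicle. In wild-type animals Tmed3 had 11.41, 11.60 and 11.46 with TM, against 8.59, 9.42 and 8.93 with vehicle. With TM the Atf6a-/- animals lay below the wild-type animals, and with vehicle they lay above them. The log2 fold change was 1.56 (SE 0.18, adjusted p = 4.26e-05 by limma) in Atf6a-/- animals and 2.51 (SE 0.18, adjusted p = 1.57e-06) in wild-type animals. The difference of the responses was -0.95 (SE 0.25, adjusted p = 0.111), and -1.17 with an adjusted p of 0.0136 without replicate 2 of wild-type vehicle. For Tmed3 too, that animal is the highest of its group, so leaving it out enlarges the wild-type response by itself. No other single array left out gave a call of this difference.

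Tmed9 had 11.15, 11.19 and 11.50 in Atf6a-/- TM animals, against 10.10, 9.53 and 10.08 with vehicle, and 11.27, 11.52 and 11.33 in wild-type TM animals, against 9.26, 9.87 and 9.42 with vehicle. The treatments did not overlap, with changes of 1.37 (SE 0.18, adjusted p = 0.000121 by limma) in Atf6a-/- and 1.85 (SE 0.18, adjusted p = 1.81e-05) in wild-type animals. Tmed7 was at 0.57 in Atf6a-/- animals, just under 1.5-fold, and was called at 0.62 in wild-type animals. Its dimmer probesets disagreed. That with a mean of 9.60 was called in both genotypes, at 0.88 in Atf6a-/- and 0.85 in wild-type animals. Those with means of 10.98 and 8.69 were not called, at 0.47 and 0.09 in Atf6a-/- and 0.31 and 0.52 in wild-type animals. With the mean of all probesets the wild-type call was lost. Tmed10 was at -0.34 in Atf6a-/- animals (SE 0.14, adjusted p = 0.0931) and 0.35 in wild-type animals (SE 0.14, adjusted p = 0.123). Further probesets name Tmed10 together with Tmed10-ps and showed no fall in Atf6a-/- animals. The brightest of them (mean 11.60) was at 0.27 in Atf6a-/- and 0.19 in wild-type animals, and the dimmer ones at 0.04 to 0.12 in Atf6a-/- and 0.01 to 0.07 in wild-type animals, none called. For Tmed2 the probeset used had a mean of 3.44, below the median of every array, so it gives no usable level, and 6 brighter probesets name Tmed2 together with Gm10698.

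Every gene of tethering and fusion was called in wild-type animals and 5 of 6 in Atf6a-/- animals. Sec22b, a SNARE protein of ER-to-Golgi fusion, had 11.65, 11.61 and 11.75 in Atf6a-/- TM animals, against 9.97, 9.59 and 9.72 with vehicle. In wild-type animals Sec22b had 11.55, 11.52 and 11.38 with TM, against 9.05, 10.06 and 9.36 with vehicle. No TM animal came near a vehicle animal, and the responses of the genotypes were 1.91 (SE 0.20, adjusted p = 2.02e-05 by limma) in Atf6a-/- and 1.99 (SE 0.20, adjusted p = 2.17e-05) in wild-type animals.

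Uso1, the tether p115, had 11.39, 11.64 and 11.93 in Atf6a-/- TM animals, against 10.57, 10.32 and 10.54 with vehicle, and 11.69, 11.97 and 11.83 in wild-type TM animals, against 9.82, 10.58 and 9.94 with vehicle. Its groups separated by treatment, with changes of 1.18 (SE 0.19, adjusted p = 0.0005 by limma) in Atf6a-/- and 1.72 (SE 0.19, adjusted p = 4.42e-05) in wild-type animals. The SNARE proteins Gosr2 and Bet1 were called in both genotypes, Gosr2 at 1.25 in Atf6a-/- and 1.28 in wild-type animals, Bet1 at 0.79 in Atf6a-/- and 1.19 in wild-type animals. A second probeset of Bet1 (mean 8.85) was not called, at 0.19 in Atf6a-/- and 0.34 in wild-type animals, and the Atf6a-/- call was lost with the mean of all probesets. Golt1b, a Golgi membrane protein, was called at 0.64 in Atf6a-/- and 1.11 in wild-type animals, but its signal was above the array median on 5 of 12 arrays. Yif1a, another membrane protein of the early Golgi, was at 0.31 in Atf6a-/- animals (adjusted p = 0.132) and 0.60 in wild-type animals (adjusted p = 0.0115), the smallest of the 31 calls, and lost that call under 6 of 24 alternatives.

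The KDEL receptors, which return escaped ER proteins, contained the only member called between the genotypes. Kdelr3 had 5.27, 5.54 and 5.84 in Atf6a-/- TM animals, against 5.54, 5.48 and 5.56 with vehicle. In wild-type animals Kdelr3 had 5.95, 6.98 and 6.73 with TM, against 5.64, 5.42 and 5.56 with vehicle. Wild-type TM animals thus stood above the other 3 groups. Signals of those groups, 5.27 to 5.84, lay close to the array median near 5, against 5.95 to 6.98 in wild-type TM animals. The change with TM was 0.03 (SE 0.22, adjusted p = 0.941 by limma) in Atf6a-/- animals and 1.02 (SE 0.22, adjusted p = 0.0054) in wild-type animals. Under TM, Kdelr3 in Atf6a-/- animals was at 0.499 of its level in wild-type animals (SE 0.22 on the log2 scale, adjusted p = 0.0205). The difference between the responses, -0.99 (SE 0.31, adjusted p = 0.187), did not pass. The call between genotypes was lost on leaving out Atf6a-/- TM replicate 1 (adjusted p = 0.0907) or, of the wild-type TM animals, replicate 2 (adjusted p = 0.0962) or replicate 3 (adjusted p = 0.0906).

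Kdelr1 had 11.07, 11.02 and 11.11 in Atf6a-/- TM animals, against 11.23, 10.96 and 10.84 with vehicle, and 11.28, 11.14 and 11.04 in wild-type TM animals, against 10.98, 10.93 and 10.92 with vehicle. Its groups overlapped in Atf6a-/- animals and not in wild-type animals, with changes of 0.06 (SE 0.11, adjusted p = 0.728 by limma) in Atf6a-/- and 0.21 (SE 0.11, adjusted p = 0.231) in wild-type animals. For Kdelr2, singled out after its values were seen, the 2 probesets disagreed. The brighter had 10.76, 9.99 and 10.61 in Atf6a-/- TM animals, against 10.51, 10.17 and 10.47 with vehicle, and 10.51, 10.55 and 10.80 in wild-type TM animals, against 10.55, 10.75 and 10.33 with vehicle. These groups overlapped, at 0.07 in Atf6a-/- and 0.08 in wild-type animals (SE 0.18). The dimmer, with a mean of 9.34, was at 1.32 (SE 0.14, adjusted p = 2.77e-05) in Atf6a-/- and 1.45 (SE 0.14, adjusted p = 2.06e-05) in wild-type animals. It had 9.88, 10.16 and 10.19 in Atf6a-/- TM animals, against 8.84, 8.65 and 8.79 with vehicle, and 10.05, 10.07 and 9.81 in wild-type TM animals, against 8.36, 8.86 and 8.37 with vehicle. Whether Kdelr2 is counted as raised thus rests on the choice of probeset.

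Of the COPI coat, 6 of 7 genes were called in both genotypes. Copb1, the beta subunit, had 11.02, 11.02 and 11.38 in Atf6a-/- TM animals, against 10.27, 10.01 and 10.24 with vehicle, and 11.08, 11.20 and 11.09 in wild-type TM animals, against 9.63, 10.31 and 10.05 with vehicle. Treatments did not overlap, at 0.97 (SE 0.16, adjusted p = 0.000594 by limma) in Atf6a-/- and 1.13 (SE 0.16, adjusted p = 0.000296) in wild-type animals.

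Arcn1, the delta subunit, had 12.06, 11.88 and 12.37 in Atf6a-/- TM animals, against 11.44, 11.07 and 11.27 with vehicle, and 11.83, 12.09 and 12.07 in wild-type TM animals, against 10.79, 11.20 and 10.87 with vehicle. It separated by treatment in both genotypes, at 0.84 (SE 0.15, adjusted p = 0.00119 by limma) in Atf6a-/- and 1.04 (SE 0.15, adjusted p = 0.000384) in wild-type animals. Copa, Copb2, Copg1 and Cope, the alpha, beta prime, gamma and epsilon subunits, were called in both genotypes, at 0.59 to 0.87 in Atf6a-/- and 0.64 to 0.99 in wild-type animals. A second probeset of Copg1 (mean 8.78) was not called, at 0.16 (adjusted p = 0.601) in Atf6a-/- and 0.57 (adjusted p = 0.08) in wild-type animals, and with the mean of all probesets its call was lost in both genotypes.

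Copz1, the zeta subunit, was the member of the coat that was not called in Atf6a-/- animals. It was singled out after its values were seen. Copz1 had 10.64, 10.95 and 11.04 in Atf6a-/- TM animals, against 10.82, 10.78 and 10.83 with vehicle, and 11.30, 11.56 and 11.35 in wild-type TM animals, against 10.61, 10.75 and 10.71 with vehicle. Every wild-type TM animal stood above all others. The change was 0.07 (SE 0.11, adjusted p = 0.684 by limma) in Atf6a-/- and 0.72 (SE 0.11, adjusted p = 0.000667) in wild-type animals, and the difference of the responses was -0.65 (SE 0.16, adjusted p = 0.0821). Under TM the genotypes differed by -0.52 (SE 0.11, adjusted p = 0.0199), less than 1.5-fold. A dimmer probeset of Copz1 (mean 7.25) was at -0.00 in wild-type animals, so this too rests on the probeset.

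Arfgap3, which stimulates GTP hydrolysis by Arf1 on COPI vesicles, had the largest change of the 38 genes in Atf6a-/- animals, and in wild-type animals its change lay within the error of that of Tmed3. It had 10.68, 10.48 and 10.87 in Atf6a-/- TM animals, against 7.55, 7.21 and 7.64 with vehicle. In wild-type animals Arfgap3 had 9.74, 9.50 and 9.61 with TM, against 6.47, 7.95 and 6.71 with vehicle. Each treatment group stood clear of its vehicle group, and with TM all Atf6a-/- animals stood above all wild-type animals. The change was 9.28-fold (log2 3.21, SE 0.29, adjusted p = 7.03e-06 by limma) in Atf6a-/- and 5.95-fold (log2 2.57, SE 0.29, adjusted p = 5.6e-05) in wild-type animals. Under TM, Atf6a-/- animals were at 1.06 above wild-type animals (SE 0.29, adjusted p = 0.0662). Without replicate 2 of wild-type vehicle, the animal at 7.95, the adjusted p was 0.000968 with the difference unchanged at 1.06. That animal is not part of this comparison, so leaving it out changes the estimate of the spread shared by all groups, not the difference. A dimmer probeset of Arfgap3, with vehicle signal near the array median, changed by 2.32 in Atf6a-/- and 0.91 in wild-type animals.

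**Figure D4:**
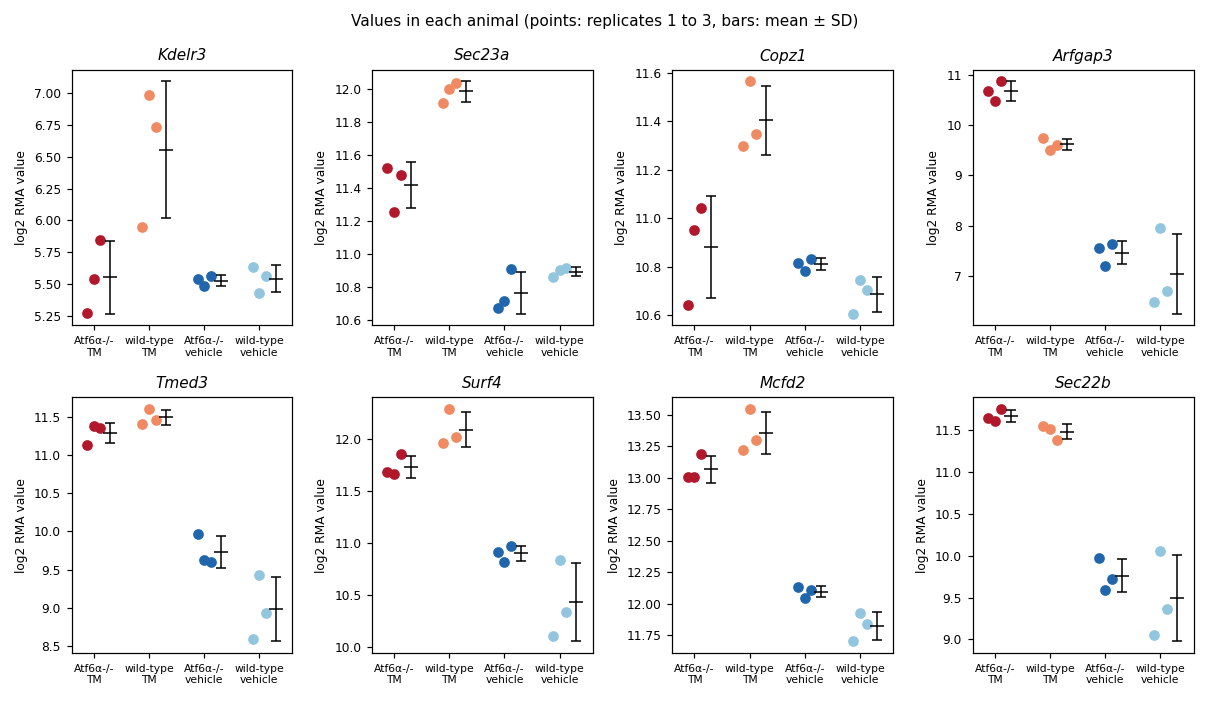
Log2 RMA value (y axis, its range differs between panels and does not start at 0) of 8 genes in every animal of the 4 groups, with mean and SD beside the points (3 animals per group). Kdelr3 and Copz1 stand high in wild-type TM animals, Arfgap3 stands highest in Atf6a-/- TM animals, and replicate 2 is the highest wild-type vehicle animal for Arfgap3, Tmed3, Surf4, Mcfd2 and Sec22b.

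Between the genotypes, few members differed. With TM, 0 of the 38 genes were called higher and 1, Kdelr3, lower in Atf6a-/- than in wild-type animals, against 2.89% and 1.53% of all genes. By unadjusted p and over 1.5-fold, 1 member, Arfgap3, was higher, and the methods' t-test gave the same count. With vehicle, 0 members were called in either direction, as were 0% of all genes, while by unadjusted p of limma 2 members were higher and 0 lower, and by the unadjusted t-test 0. For the difference of the TM responses, 0 members were called, against 1.06% of all genes higher and 0.748% lower, while 5 members had an unadjusted p under 0.05 and a difference of over 1.5-fold, all lower. Shares of all genes by unadjusted p were not computed, so these unadjusted counts cannot be set against a background. The 2 members past an adjusted p of 0.05 with TM but under 1.5-fold were Sec23a (-0.57, SE 0.10, adjusted p = 0.00549 by limma) and Copz1 (-0.52). Without regard to a test, the animals of the genotypes did not overlap for 5 members with Atf6a-/- above and 8 with Atf6a-/- below wild-type under TM (13.4% and 10.2% of all genes), and for 4 above and 0 below with vehicle (4.85% and 3.68% of all genes). The 95% interval of the difference with TM was -0.24 to 0.62 for Sec22b and -0.19 to 0.32 for Copa, so such genes may still differ by these amounts.

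The signs of the differences were uneven. With vehicle, 31 of the 38 genes had a higher mean in Atf6a-/- than in wild-type animals (median 0.15), against 50.1% of all genes. With TM, 17 of 38 did (median -0.09), against 45.8% of all genes. The response to TM was smaller in Atf6a-/- than in wild-type animals for 32 of 38 (median -0.21). Over all genes it was larger in Atf6a-/- animals for 46.6% (median -0.02). These 3 comparisons share arrays, so their counts are not independent of each other. The genes are not independent either, since they differed together between animals of a group, so few animals can set most signs. With vehicle, the median of the 38 genes in each animal overlapped between genotypes, at 10.28 to 10.46 in Atf6a-/- and 9.87 to 10.44 in wild-type animals. By role, the median difference of the responses was -0.54 for the cargo receptors, -0.48 for Tmed genes, -0.34 for tethering and fusion, -0.31 for the COPII coat, -0.15 for KDEL receptors, -0.11 for the COPI coat and -0.01 for COPII assembly, and Arfgap3 was at 0.64.

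**Figure D5:**
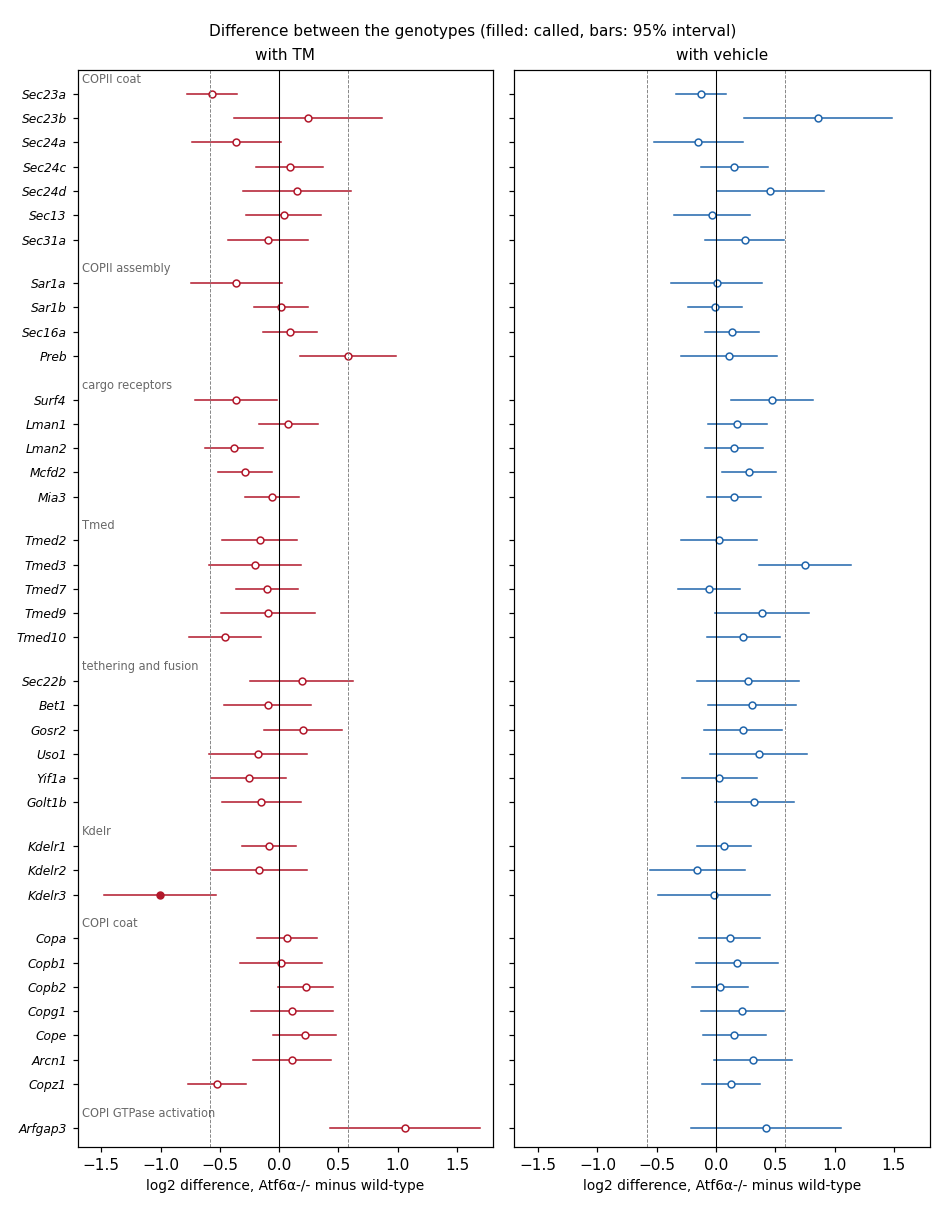
Log2 difference between Atf6a-/- and wild-type animals (x axis) with TM (left) and with vehicle (right) for the 38 genes, with 95% intervals from limma, 3 animals per group. Kdelr3 with TM, at a ratio of 0.499, is the single filled point, and with vehicle 31 points lie right of 0.

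Animals of a group also differed together. In each group a single animal held the highest value for most of the 38 genes: Atf6a-/- TM replicate 3 for 32, wild-type TM replicate 2 for 25, Atf6a-/- vehicle replicate 1 for 27 and wild-type vehicle replicate 2 for 29. Over all genes, no animal held the highest value of its group for more than 37.9% of genes. The median over the 38 genes ran from 11.14 to 11.38 in Atf6a-/- TM animals and from 11.27 to 11.51 in wild-type TM animals, and from 10.28 to 10.46 in Atf6a-/- vehicle animals and from 9.87 to 10.44 in wild-type vehicle animals. The lowest TM animal thus stood above the highest vehicle animal.

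Some markers of other liver cells were also called lower with TM. The mean log2 level of 8 stellate cell markers, 7 of them above the median on all arrays, was 7.57 to 7.87 in Atf6a-/- TM, 7.63 to 8.00 in wild-type TM, 8.05 to 8.39 in Atf6a-/- vehicle and 7.98 to 8.99 in wild-type vehicle animals, with 2 called lower in Atf6a-/- and 3 in wild-type animals. That of 8 Kupffer cell and macrophage markers, all above the median, was 8.19 to 8.73 in Atf6a-/- TM, 8.68 to 8.93 in wild-type TM, 8.69 to 9.39 in Atf6a-/- vehicle and 8.61 to 9.53 in wild-type vehicle animals, with 3 called lower in Atf6a-/- and 0 in wild-type animals, where the TM range lies inside the vehicle range. Of 8 endothelial markers, 1 was called higher in Atf6a-/- and 1 lower in wild-type animals. Of 5 cholangiocyte and 7 lymphocyte markers, 1 each was called lower in Atf6a-/- animals and 0 in wild-type animals, and of 4 neutrophil markers 0 were called. Hepatocyte markers were at 14.22 to 14.28 in Atf6a-/- TM, 14.17 to 14.19 in wild-type TM, 14.08 to 14.14 in Atf6a-/- vehicle and 14.08 to 14.15 in wild-type vehicle animals. Of these 9 markers, 2 were called higher with TM in Atf6a-/- and 1 in wild-type animals, and 0 lower. No marker was called between the genotypes. The part of these shifts in the members' changes was not tested.

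Other genes of the pathway were also measured. Of 55 further genes of the same steps, 21 were called higher and 5 lower with TM in Atf6a-/- animals, and 21 higher and 4 lower in wild-type animals, with medians of 0.36 in Atf6a-/- and 0.31 in wild-type animals on the log2 scale. The shares over all genes were 13.1% higher and 8.21% lower in Atf6a-/- animals, and 8.92% higher and 6.9% lower in wild-type animals. The SNARE protein Stx5a, partner of Sec22b, Bet1 and Gosr2 in fusion at the Golgi, changed by 2.08 in Atf6a-/- and 2.26 in wild-type animals (SE 0.11 each, adjusted p = 1.85e-07 and 8.14e-08 by limma). Scfd2, of the same family as the SNARE regulator Scfd1, changed by 1.12 in Atf6a-/- and 1.62 in wild-type animals (SE 0.13 each, adjusted p = 4.54e-05 and 3.96e-06). Between the genotypes with TM, 3 of the 55 (5.45%) were called higher and 0 lower in Atf6a-/- animals, against 2.89% and 1.53% of all genes. These were Arfgap1 (0.92, SE 0.18, adjusted p = 0.0102), which like Arfgap3 acts on Arf1, the SNARE protein Bet1l (0.71, SE 0.18, adjusted p = 0.0409) and the coat subunit Sec24b (0.61, SE 0.13, adjusted p = 0.019).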

How the data were processed

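Total RNA of 12 mouse livers was hybridised to 1-colour Affymetrix arrays, and groups were taken from the sample labels. The authors deposited log2 values made by RMA (background correction, quantile normalization across arrays and summary by probeset), with affy and limma named in their processing notes, versions not given. The values were used as deposited. Of 45101 probesets, 64 controls were left out. The annotation names 1 gene for 34945, several for 932 and none for 9160.

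With limma 3.58.1 in R 4.3.3, the mean of each group was fitted over the 12 arrays (8 residual and 4.25 prior degrees of freedom), and p-values were adjusted over 45037 probesets. The procedure was tested on simulated data. Members and lists were chosen with earlier results of these data known. Values in every animal are given for the 2 genes of each role with the largest limma statistic with TM in wild-type animals, for members called between genotypes or lower with TM, and for Copz1, Sar1b and Kdelr2, chosen after their values were seen. Further pathway genes are the 2 with the largest statistic and those called between genotypes, with these last named after their values were seen.

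Alternatives were quantile, cyclic loess and Btf3 and Ppia normalization, a block for animal numbers, sex-linked signal (Y-linked genes less Xist) as covariate, weighted arrays, each array left out, bright probesets, trend and robust variance, other thresholds, unadjusted p, only the arrays of a contrast, other choices of probeset and the methods' t-test. A fit without the 4 arrays that carry Y-linked signal and the comparison of relatives, which is not tested, were added after the values were seen. The number of arrays limits the precision. Ppia was taken from a probeset that also names another gene, and 5 members had no promoter window to read: Lman1, Tmed2, Tmed7, Kdelr2 and Arcn1.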

Additional observations from a re-analysis of the deposited data

Results flagged for a closer look

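Tmed2 appeared raised in data that the comparisons above do not use. Of the probesets that name Tmed2 together with Gm10698, 2 were called higher with TM in Atf6a-/- animals, by 0.77 and 0.73 on the log2 scale, and 6 in wild-type animals, by 1.20, 1.00, 1.04, 1.08, 0.78 and 0.90. Their mean signals lay between 10.55 and 12.29, against 3.44 for the probeset that names Tmed2 alone. Which of both genes gave the signal was not tested.

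The response to TM differed between the genotypes in second probesets of 2 members. A dimmer probeset of Lman2 (mean 10.06) had a response smaller in Atf6a-/- than in wild-type animals, by -0.92 (SE 0.20, adjusted p = 0.0439 by limma). A dimmer probeset of Arfgap3 (mean 5.68, above the array median on 7 arrays) responded by 2.32 in Atf6a-/- and 0.91 in wild-type animals, a difference of 1.41 (SE 0.29, adjusted p = 0.0394), and was higher in Atf6a-/- than in wild-type animals with TM by 1.24 (SE 0.21, adjusted p = 0.00483). Its vehicle values, 4.68 to 4.86 in Atf6a-/- and 4.83 to 5.12 in wild-type animals, lie near the median of all probesets, so the sizes of its responses are uncertain. For the brighter probesets the differences of the responses were -0.54 for Lman2 and 0.64 for Arfgap3, neither called. Groups of 3 animals are too small for a test of outlying animals.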

How the results depend on the processing

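The count of members called higher with TM stayed between 22 and 27 in Atf6a-/- animals (26 in the fit reported) and between 28 and 31 in wild-type animals (31) when each array was left out, with 0 called lower. At a 2-fold threshold the counts were 9 in Atf6a-/- and 18 in wild-type animals, and the methods' t-test, after Benjamini-Hochberg adjustment, called 18 in Atf6a-/- and 16 in wild-type animals. Of the genes called, 18 of 26 in Atf6a-/- and 24 of 31 in wild-type animals kept their call under every alternative other than that test and the changed thresholds. The TM calls lost by leaving out a single array were near the fold limit, at 0.49 to 0.58 on the log2 scale, and these were Sec31a, Mia3, Golt1b and Copa in Atf6a-/- animals (without TM replicate 3, and also vehicle replicate 1 for Mia3, 3 for Golt1b and 2 for Copa), and Sec13, Tmed7, Yif1a, Copa and Copb2 in wild-type animals (without TM replicate 2 for Sec13, Yif1a and Copa, TM replicate 3 for Tmed7, vehicle replicate 1 for Sec13, Tmed7 and Copb2, vehicle replicate 2 for Yif1a and vehicle replicate 3 for Copa). Copz1 lost its call in wild-type animals and showed no change, at -0.00439, without _s_at, _x_at and _a_at probesets.

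Between genotypes with TM, the count of lower members was 1 in the fit reported, 2 after cyclic loess normalization, 3 with no fold threshold, 0 with only the arrays of the contrast and 0 by the methods' t-test with adjustment. It was 0 to 3 when arrays were left out. The count of higher members was 0 in the fit reported and 2, Arfgap3 and Preb, after centring on Btf3 and Ppia. It was 1, Arfgap3, with the sex-linked covariate, weighted arrays, only bright probesets, only the arrays of the contrast, the mean of all probesets, no _s_at, _x_at and _a_at probesets, the unadjusted t-test, unadjusted p, and without the 4 arrays with Y-linked signal. It was 0 to 1 when arrays were left out.

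With vehicle, members called higher in Atf6a-/- animals numbered 1 (Sec23b) without the 4 arrays with Y-linked signal, 2 with unadjusted p and 0 to 3 when arrays were left out, the 3 being Sec23b, Sec24d and Tmed3 without replicate 2 of wild-type vehicle. For the difference of the responses, 1 member (Lman2) was lower with the mean of all probesets, 2 (Surf4 and Tmed3) without the 4 arrays, 5 with unadjusted p and 0 to 3 when arrays were left out, the 3 being Sec23b, Surf4 and Tmed3 without replicate 2 of wild-type vehicle, and 1 (Kdelr3) without replicate 1 of wild-type TM. There 1 member (Arfgap3) was higher without _s_at, _x_at and _a_at probesets. The cause of these shifts was not tested.

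Animal numbers did not pair the groups, since deviations of arrays with the same number correlated at -0.48 to 0.39 (median -0.08) and those with different numbers at -0.52 to 0.61. With the replicate block, counts were 26 higher in Atf6a-/- and 31 in wild-type animals, 1 lower between genotypes with TM and 0 for the rest. Of 19 members with 2 or more probesets above the median on all arrays, 12 had all such probesets share the call in wild-type animals. Dim signal limits Tmed2, Golt1b and Kdelr3.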

Other observations

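Pathway genes beyond the 38 also included some that fell with TM. Trappc1, of the TRAPP tethering complex, was called lower by -1.27 in Atf6a-/- and -0.84 in wild-type animals on the log2 scale, and Golt1a, a relative of Golt1b, by -1.09 in Atf6a-/- and -0.76 in wild-type animals. Ergic3, a receptor that cycles between the ER and the intermediate compartment, was called lower by -0.83 in Atf6a-/- and -0.59 in wild-type animals. Sec16b, a relative of the scaffold Sec16a, was at -0.55 in Atf6a-/- animals, under 1.5-fold, and called at -0.91 in wild-type animals. Copz2, a relative of Copz1, was called at -0.77 in Atf6a-/- animals and was at -0.32 in wild-type animals without a call. The GTPase Rab1b was called at -0.86 in Atf6a-/- animals and was at -0.57 in wild-type animals, under 1.5-fold, whereas Rab1a was at 0.44 in Atf6a-/- animals, under 1.5-fold, and was called at 0.74 in wild-type animals. Differences between such relatives were not tested, and these genes were named after their values were seen.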
